A study of Mus musculus with 150 samples.

Results

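The inbred mouse strains AJ and B6 were compared across 10 body tissues, with 1 array of each strain in every tissue. The comparison rested on the 20 arrays, of 150 in the series, whose labels gave AJ or B6 together with a body tissue. The tissues were liver, kidney, adrenal, spleen, thymus, heart, skeletal muscle, brown adipose tissue (BAT), white adipose tissue (WAT) and testes. All animals were wild type and untreated as far as the labels state, which give neither age nor sex, nor how many animals were pooled. The other 30 body arrays held the strains 129, DBA and C3H in the same tissues and are used here only to place AJ and B6. No tissue was repeated within a strain, so tissues stood in for replicates of the strain difference, and a gene that differed in a single tissue could not be tested.

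Inbred strains are fixed for different alleles at many loci, and a regulatory variant that acts in every cell can change a transcript in all organs. Variants can also delete or duplicate a gene, or alter the stretch of transcript to which an array probe binds. On these arrays a transcript is read by a probe set, a group of short oligonucleotides, and many genes have several probe sets along their length. A probe set that stands alone among those of its gene can reflect a transcript end, an isoform or a sequence difference under its probes. Here, less RNA and weaker hybridization of the same RNA cannot be told apart. In whole tissue, fewer cells of a type and less RNA per cell cannot be told apart either.

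All 20 arrays matched their labelled tissue: in AJ and in B6, each of the 10 tissue marker lists had its highest mean in its own tissue. The intensity at the 75th percentile lay between 167.88 and 182.15 on all of them, lower in AJ in 10 of 10 tissues (172 against 175 on average, exact paired sign-flip test, 2-sided p = 0.00195, the smallest it can give, adjusted over 18 array measures 0.0351). AJ arrays were dimmer at the middle of the range. The median intensity of an array was typically 45.6 in AJ and 52.9 in B6 (medians of 10 arrays each), lower in AJ in 9 of 10 tissues (exact paired sign-flip test, 2-sided p = 0.00391, adjusted over 18 array measures 0.0352). The share of probe sets at or below the floor of 10.41 (the intensity to which lower values were raised) was 23.0% in AJ and 19.6% in B6 (exact p = 0.00781, adjusted 0.044). The 3' to 5' ratio of the Gapdh control probe sets, a sign of RNA integrity, averaged 0.971 in AJ and 1.04 in B6 (exact p = 0.184, adjusted 0.331), and that of Actb 1.44 and 1.69, lower in AJ in 7 of 10 tissues (exact p = 0.0742, adjusted 0.223). Xist, the RNA of the inactive X chromosome, lay at the floor on 19 of 20 arrays and at a log2 level of 3.48 on the other.

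Of 12422 probe sets for mouse transcripts, 8930 passed the filter on low signal and were tested with limma, with tissue as a block. A probe set was called at a Benjamini-Hochberg adjusted p of at most 0.05 and a difference of at least 1.5-fold. In AJ 128 were higher (1.43% of those tested) and 362 were lower (4.05%). The surplus of lower calls moved with the scaling: after quantile normalization 155 were higher and 140 lower, which took the share of higher calls from 26.1% to 52.5%. Of the calls, 105 higher and 137 lower probe sets were called both ways. The called-lower probe sets were also dimmer, with a median log2 level of 5.93, against 7.22 for the called-higher ones and 6.56 for all tested. Without the muscle pair of arrays 63 were higher and 161 lower. Leaving out the pairs of liver (71 and 163), kidney (76 and 157) or thymus (77 and 199) lowered the counts as well, each by more than 1.5 times in both directions.

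The strain difference was repeated from organ to organ for a smaller set. Of all tested probe sets, 139 were higher in AJ in all 10 tissues (1.56%) and 224 were lower in all 10 (2.51%). Among the called probe sets, which had to be consistent to be called, this held for 44 of 128 higher and 139 of 362 lower ones. A further 219 called probe sets kept their sign in 9 tissues, 74 in 8 and 14 in 7. A core of 103 probe sets, 36 higher and 67 lower, kept the call in each of 21 alternative analyses in which they were tested. These 21 leave out the fit without the tissue block, where 21 of the 103 kept the call, and the fit of spleen, WAT and adrenal alone, where 0 did. These 103 represent 87 genes with an unambiguous symbol, and 70 of the probe sets had 1 sign in all 10 tissues.

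**Figure D1:**
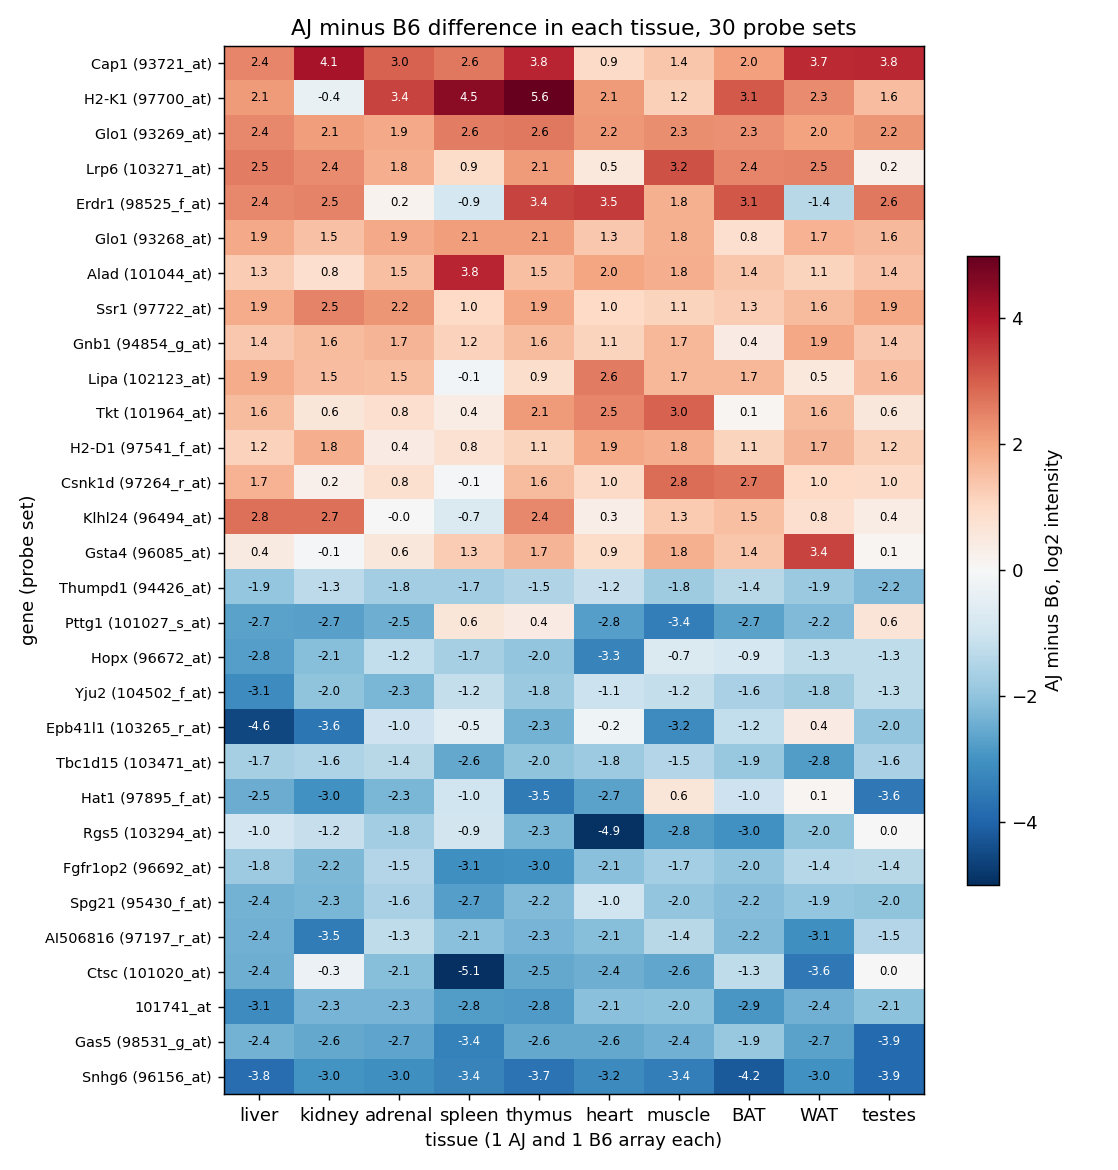
AJ minus B6 difference in log2 intensity (colour and printed number) for the 15 probe sets higher and the 15 lower in AJ with the largest mean difference, in each of 10 tissues with 1 array per strain. Snhg6 ranges from -4.2 to -3.0 over the tissues, while Erdr1 is positive in 8 tissues and negative in spleen and WAT.

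Of the probe sets with a gene symbol, the largest differences belonged to 2 RNAs that host small nucleolar RNAs and to Cap1, given further on. A probe set with no symbol, 160799_at, singled out after its value was seen, was at the floor on all 10 AJ arrays and read 15.01 to 1177.55 in B6, on average at least 11.0-fold above the floor. Snhg6, whose introns carry a small nucleolar RNA, had log2 levels of 4.56 to 5.85 in AJ (median 5.35) and 8.32 to 9.40 in B6 (median 8.52). The ranges did not overlap, and the difference of -3.46 ± 0.14 (SE, 10 tissue pairs, limma adjusted p = 4.14e-09) is 11.0-fold. Gas5, a growth-arrest RNA that hosts many small nucleolar RNAs, ran from 4.74 to 7.81 in AJ and from 8.33 to 10.38 in B6 with probe set 98531_g_at. It was lower in AJ in 10 of 10 tissues, by -2.69 ± 0.16 (adjusted p = 3.42e-07), and a neighbouring probe set, 98530_at, gave -1.38 ± 0.22. The third Gas5 probe set, 101885_at, was at the floor on 5 AJ and 8 B6 arrays and differed by 0.10 ± 0.15. A second Snhg6 probe set never passed the filter, with every AJ array at the floor.

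Other transcripts lower in AJ in every tissue had roles from membrane traffic to transcription. Spg21, which encodes the maspardin protein of endosomes, differed by -2.03 ± 0.15 with 95430_f_at. Its levels were 5.15 to 7.42 in AJ and 6.20 to 9.33 in B6. Fgfr1op2, a gene for a coiled-coil protein, differed by -2.02 ± 0.18, and its AJ range of 5.39 to 6.82 lay wholly under the B6 range of 7.25 to 9.42. Thumpd1, which takes part in the acetylation of transfer RNA, likewise had separate ranges, 5.56 to 6.60 in AJ and 7.52 to 8.12 in B6, with a difference of -1.66 ± 0.12. Yju2, a splicing factor gene, differed by -1.74 ± 0.19 with 104502_f_at. The f in the names of this probe set and that of Spg21 marks probes that can also match related genes. Hopx, a homeodomain protein gene active in heart, differed by -1.73 ± 0.23, with -3.3 in heart and -0.7 in skeletal muscle at the ends of its range. AI506816, an uncharacterized transcript, differed by -2.19 ± 0.19 with 97197_r_at. Probe set 101741_at, annotated with the symbol of a microRNA gene and so not read here as that microRNA, differed by -2.49 ± 0.12.

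Among genes higher in AJ, Glo1 differed evenly over tissues. Glo1 encodes glyoxalase 1, which detoxifies methylglyoxal, and lies in a segment whose copy number is known to vary among inbred strains. With probe set 93269_at its levels ran from 8.55 to 12.14 in AJ and from 6.34 to 9.76 in B6, and every tissue differed by between 1.9 and 2.6. The mean difference of 2.26 ± 0.08 (adjusted p = 2.49e-09) is 4.78-fold, and the second probe set, 93268_at, gave 1.67 ± 0.12. Alad, the heme synthesis enzyme aminolevulinate dehydratase, also known for copy number variation, was higher in 10 of 10 tissues by 1.67 ± 0.22. Its spleen difference of 3.83 was far above the next, 1.98 in heart. Markers of red blood cells differed in the same direction in that pair: 6 of 7 were higher in AJ spleen, with a summed intensity of 23032 against 13199.4 in B6. The mean log2 level of these markers in spleen was 8.97 in B6, 11.16 in AJ and 10.98 to 11.43 in 129, DBA and C3H. Their part in the Alad value was not tested. Without the spleen pair Alad kept its call.

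Cap1, which encodes an actin-regulating protein, had log2 levels of 5.48 to 8.45 in AJ and 3.38, the floor, to 5.64 in B6. It was higher in AJ in 10 of 10 tissues by 2.78 ± 0.31 (adjusted p = 1.91e-04), from 0.9 in heart to 4.1 in kidney. Ssr1, a subunit of the translocon-associated complex at the endoplasmic reticulum, was higher by 1.64 ± 0.15, and Gnb1, the G protein beta subunit, by 1.39 ± 0.13 with probe set 94854_g_at. Enzymes were among the rest. Lipa, the lysosomal acid lipase, was higher by 1.37 ± 0.21 and in 9 of 10 tissues, with spleen at -0.1. Tkt, the transketolase of the pentose phosphate pathway, was higher by 1.31 ± 0.26, most in skeletal muscle (3.0), heart (2.5) and thymus (2.1) and least in BAT (0.1), where its intensity was highest (6173 in AJ and 5778 in B6). Brown fat markers were higher in AJ in those pairs, 3 of 3 in thymus (summed intensity 2017 against 139), 3 of 3 in heart (4692 against 2950) and 2 of 3 in muscle (1467 against 1195). Most of the heart and muscle sums came from Cox7a1, which differed little (2827 against 2677 in heart, 1014 against 1117 in muscle). Ucp1 read 1247 against 15.6 in heart and 248 against 43.7 in muscle, and Cidea 618 against 257 and 205 against 34.8. The part of these markers in the Tkt values was not tested. Gsta4, which conjugates lipid aldehydes to glutathione, was higher by 1.15 ± 0.28. It lost the call without the thymus, muscle or BAT pair, at 1.08 to 1.12 (limma adjusted p = 0.0519 to 0.0683).

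**Figure D2:**
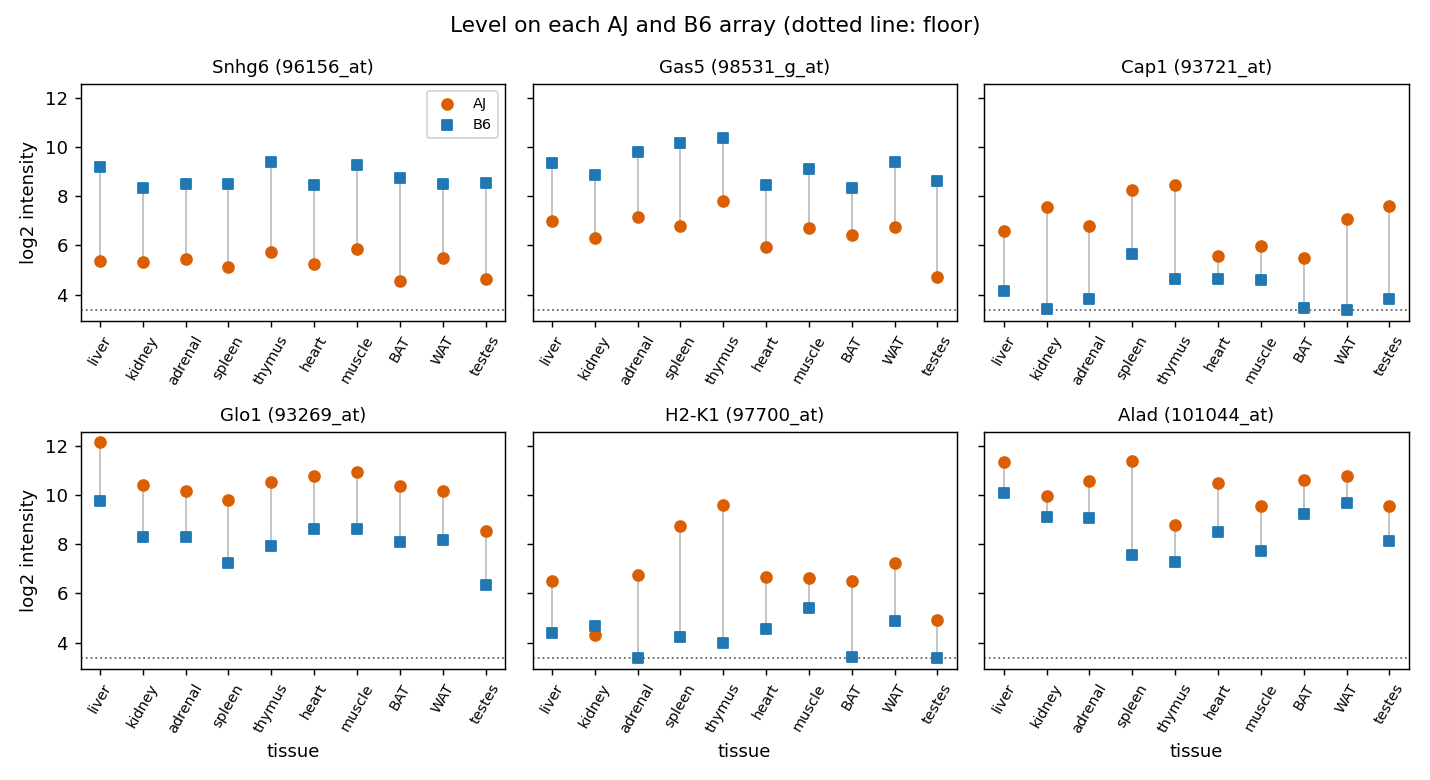
Log2 intensity of 6 probe sets on each AJ (orange circles) and B6 (blue squares) array, by tissue, with the floor as a dotted line and a grey line joining each pair. Snhg6 and Gas5 lie lower in AJ in all 10 tissues, Cap1, Glo1 and Alad lie higher in all 10, and H2-K1 is lower in AJ in kidney alone.

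The probe sets of a gene gave the same answer in some genes and different answers in others. Of 1146 genes with at least 2 tested probe sets, 144 had a call. In 24 of these, 2 or more probe sets were called in 1 direction, and in 12 every tested probe set was called. In 132 at least 1 probe set was called and at least 1 was not. In 86 of the 132 all tested probe sets at least shared the sign, and in 46 they did not. Among the 29 genes with the largest differences, 15 rested on a lone tested probe set. Another 13 had further tested probe sets outside the top group, and in 8 of the 13 none of these was called.

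Gnb1 was the clearest case of agreement, with all 3 of its probe sets called higher in AJ, by 1.39 ± 0.13, 0.88 ± 0.16 and 0.63 ± 0.11, each in 10 of 10 tissues. The smallest of them, 97458_at, fell below 1.5-fold without the WAT pair (0.53), after quantile normalization (0.58), with 32 added before the log (0.58) and in the 7 tissues whose B6 title code begins with 2000 (0.56). Ctse, the aspartic protease cathepsin E, was lower with 93861_f_at (-1.56 ± 0.27) and 93860_i_at (-1.23 ± 0.24). Another probe set, 104696_at, varied from -3.5 in adrenal to 3.5 in thymus and averaged -0.12 ± 0.58. The copper transporter gene Atp7a was lower with both probe sets, 160609_at by -1.32 ± 0.28 and 102854_s_at by -1.28 ± 0.35. The adrenal differences of -3.76 and -3.6 were the largest for either, and 160609_at kept its call without the adrenal pair. The other Atp7a probe set lost its call after quantile normalization (-1.07) and without any of the liver, kidney, adrenal, thymus, muscle, WAT or testes pairs (sizes of 1.02 to 1.34, limma adjusted p = 0.0583 to 0.0865). Eln, which encodes elastin, was lower with 92207_at by -1.19 ± 0.20 and with 92836_at by -0.98 ± 0.26. The second Eln call was lost without any of the liver, kidney, adrenal, thymus, heart, muscle or testes pairs (0.80 to 1.08, limma adjusted p = 0.050 to 0.0818).

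Meg3, an imprinted long noncoding RNA, was lower with both probe sets, by -1.01 ± 0.21 (160173_at, 10 of 10 tissues) and -1.06 ± 0.30 (160172_at). The first lost its call after quantile normalization, at -0.85. The second lost it there too and in 8 of the 10 fits that left out a tissue pair, all but those of adrenal and spleen (0.85 to 1.17, limma adjusted p = 0.0564 to 0.109). Mdfi, an inhibitor of myogenic transcription factors, had calls in 2 of 3 probe sets, -0.92 ± 0.22 and -0.84 ± 0.21, and both ended after quantile normalization (-0.72 and -0.64). Both also ended without the liver, kidney, thymus or muscle pair, the first without BAT and the second without adrenal or testes (0.71 to 0.94, limma adjusted p = 0.0504 to 0.0703).

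Other genes had probe sets that parted by several fold. Ctsc, the lysosomal protease cathepsin C, was lower in AJ by -2.23 ± 0.40 with 101020_at, which lay at the floor on 7 AJ arrays and 1 B6 array. Its call ended with the floor at the 40th percentile of intensity. Its second probe set, 101019_at, had medians of 7.54 in AJ and 7.70 in B6 and differed by 0.24 ± 0.19 (adjusted p = 0.425). Tbc1d15, which encodes a GTPase-activating protein, was lower with 103471_at (-1.88 ± 0.16, 10 of 10 tissues) while 104283_at gave 0.35 ± 0.14. Lrp6, a coreceptor for Wnt ligands, was higher with 103271_at (1.86 ± 0.27), a dim probe set at the floor on 4 B6 arrays, and level with the brighter 93877_at (-0.05 ± 0.09). Rgs5, a signalling regulator of pericytes, differed by -1.99 ± 0.38 with 103294_at, most in heart (-4.9), and by -0.15 ± 0.25 with 96180_at. Hat1, a histone acetyltransferase gene, differed by -1.89 ± 0.39 with 97895_f_at and by -0.02 ± 0.17 with 97896_r_at. The first Hat1 probe set was lower in 8 tissues and higher in muscle (0.6) and WAT (0.1). For Ssr1, the gain of 97722_at was not seen with the dimmer 94511_at (-0.31 ± 0.17).

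Itgb1bp1, which encodes a regulator of integrin adhesion, was the only gene whose probe sets were called in opposite directions. Probe set 100989_at was higher in AJ in 10 of 10 tissues by 1.00 ± 0.16, 100991_at was lower in 9 by -1.10 ± 0.28, and 100990_g_at differed by -0.05 ± 0.18. The lower call was lost after quantile normalization, at -0.89, and without the liver, kidney, muscle, BAT or testes pair (sizes of 0.95 to 1.13, limma adjusted p = 0.0513 to 0.0703). The higher call was kept in the 21 alternatives that define the core.

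**Figure D3:**
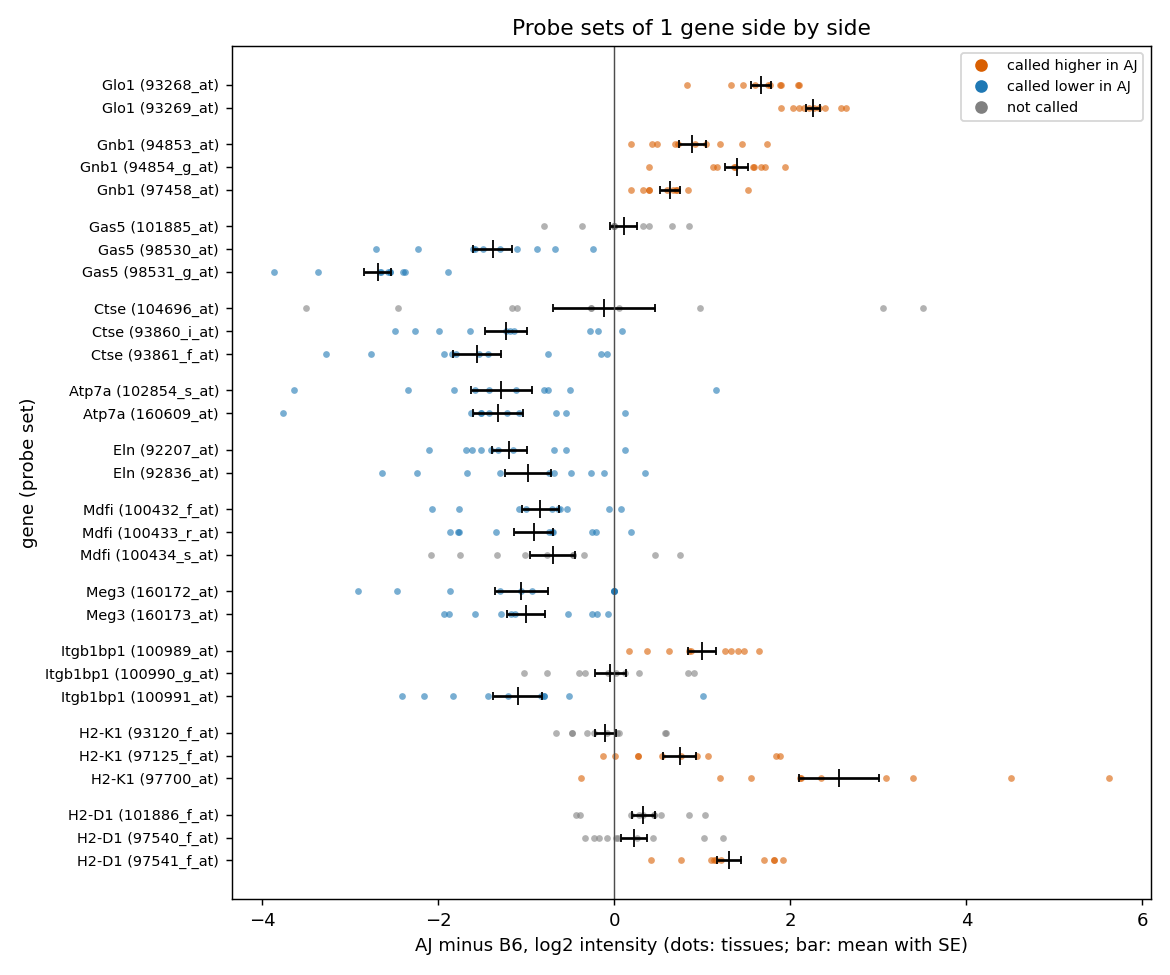
AJ minus B6 difference in log2 intensity for every tested probe set of 11 genes, with 1 dot per tissue, the mean as a vertical mark and its SE as a bar, coloured by call. The 3 Gnb1 probe sets lie to the right of 0 in every tissue, whereas those of Itgb1bp1 average 1.00, -0.05 and -1.10.

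Genes of the major histocompatibility complex differ in sequence between these strains, which carry different haplotypes, and several of their probe sets, those with an f in the name, hold probes that can match more than 1 gene of the family. H2-K1, a classical class I gene that presents peptides to T cells, was at 4.31 to 9.59 in AJ and 3.38 to 5.42 in B6 with probe set 97700_at. It was higher in AJ in 9 of 10 tissues by 2.56 ± 0.45 (adjusted p = 0.00685), with 5.6 in thymus, 4.5 in spleen and -0.4 in kidney. The probe set 97125_f_at gave 0.74 ± 0.19, a call that ended after quantile normalization (0.67), and 93120_f_at, the brightest with medians of 11.69 and 11.74, gave -0.10 ± 0.12. For H2-D1, the other classical gene, 97541_f_at was higher by 1.30 ± 0.14 in 10 of 10 tissues, and 2 further probe sets gave 0.33 ± 0.13 and 0.22 ± 0.15. Mean levels of 97700_at were 6.79 in AJ, 5.96 in DBA, 5.14 in C3H, 4.31 in 129 and 4.24 in B6. H2-Q1, a nonclassical class I gene, was lower in AJ by -0.88 ± 0.23, a call lost without the liver, kidney, thymus, muscle or BAT pair (0.69 to 0.91, limma adjusted p = 0.0507 to 0.0786). Of the 14 genes tested for class I and antigen processing, 2 were higher and 1 lower, beside 1.43% and 4.05% of all probe sets tested, and the median difference of the 20 probe sets was 0.08, against -0.06 for all tested.

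H2-Ea, a class II gene for which B6 carries a promoter deletion, lay at the floor on all 10 B6 arrays, spleen included, and so did not pass the filter on the mean of both strains. AJ spleen reached an intensity of 177.32, at least 17.0-fold above the floor, and AJ thymus reached 24.54, at least 2.36-fold. Of 10 class II genes tested by limma, none was called, and 3 were lower at an unadjusted p under 0.05. The share of all tested probe sets under that unadjusted p is not given here. Such counts, here and further on, therefore do not show that a list stands out. A pair of other immune genes outside the naming rule were singled out after their values were seen. Gbp2b, an interferon-induced guanylate-binding protein gene, also failed the filter, since B6 levels were 3.38 to 3.84. In AJ it ranged from 3.66 to 7.96, with differences of 0.3 in testes to 4.6 in WAT. B6 lay at the floor on 4 arrays, so no test is given. Ifi202b, an interferon-inducible DNA sensor gene, was at the floor on 9 B6 and 2 AJ arrays and reached 5.94 in AJ against 3.62 in B6.

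Among other genes with reported strain variants, 12 of 18 listed genes were on the arrays and 7 were tested, of which Glo1 and Alad were called. Hc, which encodes complement component C5 and is defective in AJ, was read in liver at 8.88 in AJ and 10.54 in B6. On most other arrays it lay at the floor, and the difference over tissues was -0.32 ± 0.18 (adjusted p = 0.256). Nnt, a mitochondrial transhydrogenase deleted in part in some B6 substrains, was higher in AJ in 7 of 10 tissues by 0.49 ± 0.17 (adjusted p = 0.0864). The Nnt differences ran from 1.5 in adrenal and 1.3 in muscle to -0.2 in liver, thymus and heart. P2rx7, an ATP-gated channel gene, differed by -0.54 ± 0.17 (adjusted p = 0.0685). Mx1, the pigment genes Tyr and Tyrp1, and Pla2g2a did not pass the filter.

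Metabolic gene groups held few calls. With 1.43% of all tested probe sets called higher and 4.05% called lower, few calls are due in lists of this size. In sterol and fatty acid synthesis, 1 of 20 genes was called higher (Nsdhl, 0.66 ± 0.13 with 98631_g_at) and 1 lower (Msmo1, -0.68 ± 0.18). The list's 29 probe sets had a median of 0.33, with 23 above 0, beside the median of -0.06 over all tested. Nsdhl fell below 1.5-fold without the kidney pair (0.58), and its other 2 probe sets gave 0.15 and 0.08. The Msmo1 call was lost after quantile normalization, at -0.49, and in 7 of 10 fits without a tissue pair, all but adrenal, spleen and BAT (0.57 to 0.74, limma adjusted p = 0.0498 to 0.0806). None of 17 fatty acid oxidation and ketogenesis genes was called by limma. Of their probe sets 15 of 18 were above 0 (median 0.30), and 6 genes were higher at an unadjusted p under 0.05. Without the share of all tested probe sets at that cut, this does not set the list apart. None of 31 cytochrome P450 genes was called either (median -0.01, 5 lower at an unadjusted p under 0.05). Lipe, the hormone-sensitive lipase, was higher by 0.88 ± 0.21, with 2.2 in thymus and 2.0 in muscle at the top and -0.3 in spleen at the bottom. White fat markers were higher in AJ in the same pairs, 3 of 3 in thymus (summed intensity 877 against 346) and 3 of 3 in muscle (2434 against 1371), and the brown fat sums given beside Tkt were higher there too, and their part was not tested. Leaving out the liver, kidney, thymus or muscle pair ended the call (0.74 to 0.89, limma adjusted p = 0.0543 to 0.0647). Apoc2, an activator of lipoprotein lipase, was lower by -0.95 ± 0.27, and lost its call after quantile normalization (-0.77) and in 7 of 10 fits without a tissue pair, all but adrenal, heart and WAT (0.83 to 1.00, limma adjusted p = 0.0611 to 0.101).

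Of 24 glutathione transferase and conjugation genes, Gsta4, Gstt2 (0.65 ± 0.13) and Gstz1 (0.60 ± 0.09) were higher and Gstm3 was lower (-0.76 ± 0.20), where 1.43% and 4.05% of all probe sets tested were called. Gstz1 dropped to 0.52 and Gstm3 to -0.69 after quantile normalization, and neither was then called. Gstt2 also fell below 1.5-fold without heart (0.58) and Gstz1 without thymus, muscle or WAT (0.56 to 0.57). Gstm3 lost its call without any pair but those of spleen, heart and WAT (0.63 to 0.80, limma adjusted p = 0.0528 to 0.092). The metallothionein genes Mt1 and Mt2, which bind zinc and other metals, were both higher, by 0.72 ± 0.16 and 0.98 ± 0.21, in 9 of 10 tissues with WAT at -0.3 for both. Mt1 lost its call without the liver or muscle pair (0.67 and 0.70, limma adjusted p = 0.0508 to 0.0535) and after quantile normalization (0.63), while Mt2 kept it. None of 13 circadian clock genes and none of 19 immediate early genes was called by limma, with 3 clock genes higher and 3 lower, and 5 immediate early genes lower, at an unadjusted p under 0.05.

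The remaining gene groups held at most 2 called genes each, beside 1.43% of all tested probe sets called higher and 4.05% called lower. At those shares few calls are due in such lists. Of 19 interferon-induced genes, Rsad2, an antiviral enzyme gene, was lower (-1.21 ± 0.32), a call lost after quantile normalization (-1.01) and in 6 of 10 fits without a tissue pair (1.00 to 1.22, limma adjusted p = 0.0524 to 0.0856). Of 23 complement and acute phase genes, Saa2, a serum amyloid gene, was lower by -0.91 ± 0.21 and missed the threshold without the muscle pair (limma adjusted p = 0.0535). Ly6d, a surface protein gene of lymphoid and epithelial cells, was lower in 10 of 10 tissues by -1.08 ± 0.23, from -3.1 in spleen to under 0.1 in size in adrenal, and kept its call in all 21 alternatives. None of 16 T cell genes and none of 14 B cell genes was called by limma, with 5 T cell genes lower and 1 B cell gene higher at an unadjusted p under 0.05. The T cell probe sets had a median of -0.45. Single calls in the lists of striated muscle (Tnnt2, -0.62), steroid synthesis (Nr5a1, -0.90), macrophages (Fcgr1, -0.60) and endothelium (Pecam1, -0.64), and 1 of 2 in germ cells (Crem, -0.62), ended after quantile normalization. Gapdhs (-1.18), the other germ cell gene, and Cela1 (0.63), an elastase gene of the exocrine pancreas list, kept theirs there, but lost it in 7 and 8, respectively, of the 10 fits without a tissue pair. Both lost it without a filter as well. Cela1 also lost it with the floor at the 40th percentile, with 32 added before the log, in the 7 tissues and with 5 strains in 1 fit.

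Markers of other cell types and tissues differed between the arrays of a pair. In the thymus pair all 5 liver markers were higher in B6, with a summed intensity of 51.1 in AJ and 2629 in B6. Alb, the albumin gene, stood at 8.71 in AJ thymus, under the floor, and at 2188 in B6 thymus. Over the 10 tissues the mean level of the liver list was lower in AJ in 9 (mean difference -0.72, exact paired sign-flip test, 2-sided p = 0.00977, adjusted over 18 measures 0.044). Outside liver the list averaged only 3.49 to 4.69 in AJ, with the floor at 3.38. AJ arrays also had more probe sets at the floor (23.0% against 19.6%), and the part of this in the difference was not tested. Kidney markers were higher in B6 muscle, 1874 against 67.4 in summed intensity, with Kap, an androgen-regulated kidney gene, at 1583 and 19.8. Thymus markers were also higher in B6 muscle, 604 against 125. In the WAT pair, markers of epididymis summed to 2570 in B6 and 39.4 in AJ. The B6 sum came mostly from Adam7 (2276). Of these 6 genes 4 were higher in B6, and Crisp3 and Spink1 lay at the floor in both strains. Of 4 testis genes 3 were higher in B6 WAT. Prm1, a sperm protamine gene, stood at 386 and Ldhc at 96.9, both under the floor in AJ. Tnp1 differed little (387 in B6 and 285 in AJ), and Prm2 lay at the floor in both. The difference ran the other way for B cells: all 14 B cell genes were higher in AJ adrenal, 2434 against 639 in summed intensity. The mean level of cell cycle genes was lower in AJ in 8 tissues (-1.62 in liver, -1.53 in heart) and higher in spleen (1.94). B6 stood apart from all other strains in liver (6.10 against 4.47 to 4.59), heart (6.68 against 4.85 to 5.21) and spleen (6.71 against 8.10 to 8.81). The same held in muscle (6.29 against 4.76 to 5.34). In kidney, 129 (5.89) lay near B6 (6.14), with AJ at 4.92. Both the 129 and the B6 kidney array had a title code beginning with 2000. None of the 21 cell cycle genes tested was called by limma, and 2 were lower at an unadjusted p under 0.05 (median of 24 probe sets -0.51).

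**Figure D4:**
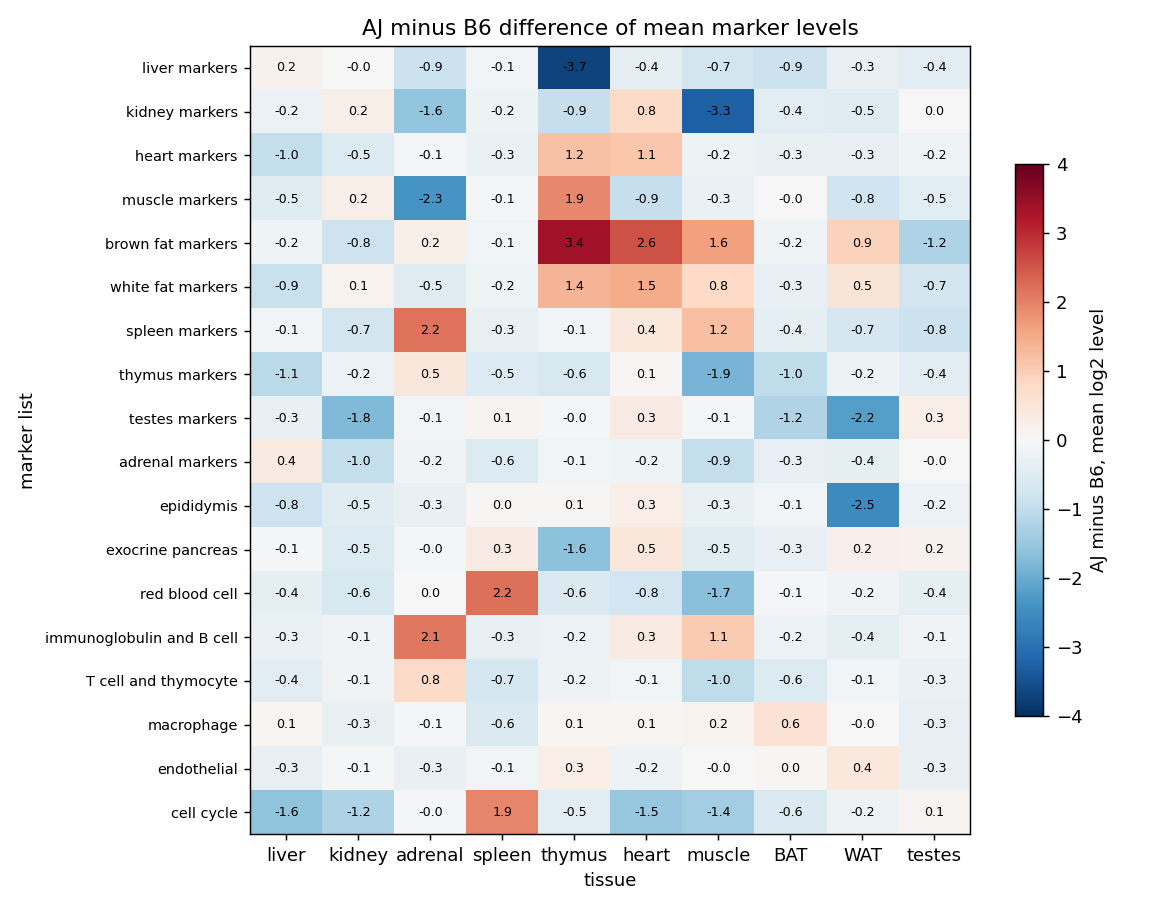
AJ minus B6 difference in the mean log2 level of 18 marker lists (rows) in each of 10 tissues (columns), with 1 array per strain. Liver markers in thymus (-3.7) and kidney markers in muscle (-3.3) are the lowest values, and brown fat markers in thymus (3.4) and heart (2.6) are the highest.

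A pair of called genes is given here beside these markers. Mup5, a major urinary protein gene of liver, was called lower in AJ by -1.49 ± 0.43 with 101635_f_at. The f in that name marks probes that can also match related genes. The differences were -3.7 in BAT, -3.6 in muscle and -3.4 in thymus, against 0.5 in liver itself, where levels were highest. The mean level of the liver markers differed by -0.86 in BAT, -0.75 in muscle and -3.72 in thymus. The Mup5 call was lost after quantile normalization (-1.45) and without any pair but that of liver (1.24 to 1.69, limma adjusted p = 0.0536 to 0.11). Pttg1, the securin of dividing cells, was lower by -1.73 ± 0.42 with 101027_s_at, from -3.4 to -2.2 in the 7 organs other than spleen, thymus and testes. In those 3 it stood at 0.4 to 0.6. AJ intensities were 453 to 1305 in the 3 and 54.9 to 158 in the 7, while B6 intensities ran from 267 to 1071 over all 10. The mean level of cell cycle genes differed by -1.62 to -0.03 in the 7 organs and by 1.94 in spleen, -0.46 in thymus and 0.10 in testes. The Pttg1 call ended without the liver, kidney, adrenal, muscle or BAT pair (sizes of 1.54 to 1.65, limma adjusted p = 0.0553 to 0.0696). A second tested Pttg1 probe set was also called lower, and its log2 difference was smaller in size by 1.12. Whether the marker differences have a part in these values was not tested.

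The difference was then compared between groups of tissues. For the lymphoid organs, spleen and thymus, against the other 8, 1 probe set passed (0.0112% of 8930, limma adjusted p of at most 0.05) and 545 had an unadjusted p under 0.05. Many of 8930 probe sets reach such an unadjusted p by chance, so this and the like counts below are descriptions. That probe set, 102823_at, has no gene symbol. It was at the floor on all 10 AJ arrays and on the 8 B6 arrays of the other tissues, while B6 spleen read 658.1 and B6 thymus 114.98, at least 63.2-fold and 11.0-fold above the floor. It passed the filter only through these B6 arrays, and its difference was 0 in the other 8 tissues because both strains lay at the floor, so the floor and the filter fix this contrast and it is no test. For BAT and WAT against the rest, limma called 0 probe sets, with 590 at an unadjusted p under 0.05. Without the BAT pair the fit called 59, with WAT alone standing for fat and assumed to vary like the other tissues. Without spleen or thymus the lymphoid fit, with 1 lymphoid organ left, called 33 and 38.

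The B6 arrays fell into sets by the code in their titles, whose meaning the labels do not state. In 7 tissues the code of the B6 array began with 2000, and in spleen, WAT and adrenal it did not. No AJ array had such a code, so in the 7 tissues strain and code cannot be told apart. Among the other strains only 129 had it, in BAT, heart, kidney, testes and thymus. The 7 tissues alone gave 130 higher and 421 lower calls in AJ. The other 3 alone gave 0 in limma, with 282 higher and 374 lower at an unadjusted p under 0.05. Of the 128 probe sets called higher, 75 had a mean of at least 1.5-fold in the same direction in the 3 tissues, and so did 167 of the 362 called lower. The calls were made with these 3 tissues included, so these counts are a description. A test of the 7 against the 3 called 2 probe sets, with 757 at an unadjusted p under 0.05.

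Erdr1, the erythroid differentiation regulator gene, had the larger difference. With 98525_f_at, B6 intensities were 59.0 to 193 in the 7 tissues and 1375 in adrenal, 2203 in spleen and 1275 in WAT. AJ intensities lay between 337 and 1838 in all 10. The AJ minus B6 difference was 2.75 in the 7 tissues and -0.69 in the 3, beside 1.72 ± 0.46 over all 10. The call over all 10 was lost after quantile normalization (1.70) and without any of the liver, kidney, thymus, heart, muscle, BAT or testes pairs (1.52 to 1.71, limma adjusted p = 0.0621 to 0.0872). The difference between the sets was -3.44 ± 0.39 (limma adjusted p = 0.00883). The second Erdr1 probe set, 98526_r_at, differed by -0.22 over all tissues. Spint1, a serine protease inhibitor gene, differed by -2.41 in the 3 tissues and by -0.02 in the 7 (-2.39 ± 0.31, limma adjusted p = 0.0197). Spint1 was at the floor on 6 AJ and 3 B6 arrays, in heart and BAT in both strains. The size and p-value of this contrast therefore depend on the floor. Klhl24, an adaptor of ubiquitin ligases, averaged 1.64 in the 7 tissues and 0.04 in the 3. Its call was lost without any pair but those of spleen and heart (0.98 to 1.29, limma adjusted p = 0.0501 to 0.107). Epb41l1, a membrane skeleton gene, averaged -2.45 and -0.39, and its call was lost without liver, kidney, thymus or muscle (1.53 to 1.77, limma adjusted p = 0.0508 to 0.0638). Snhg6 (-3.60 and -3.14), Gas5 (-2.60 and -2.90), Glo1 (2.30 and 2.16) and Cap1 (2.65 and 3.10) were alike in the 2 sets.

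**Figure D5:**
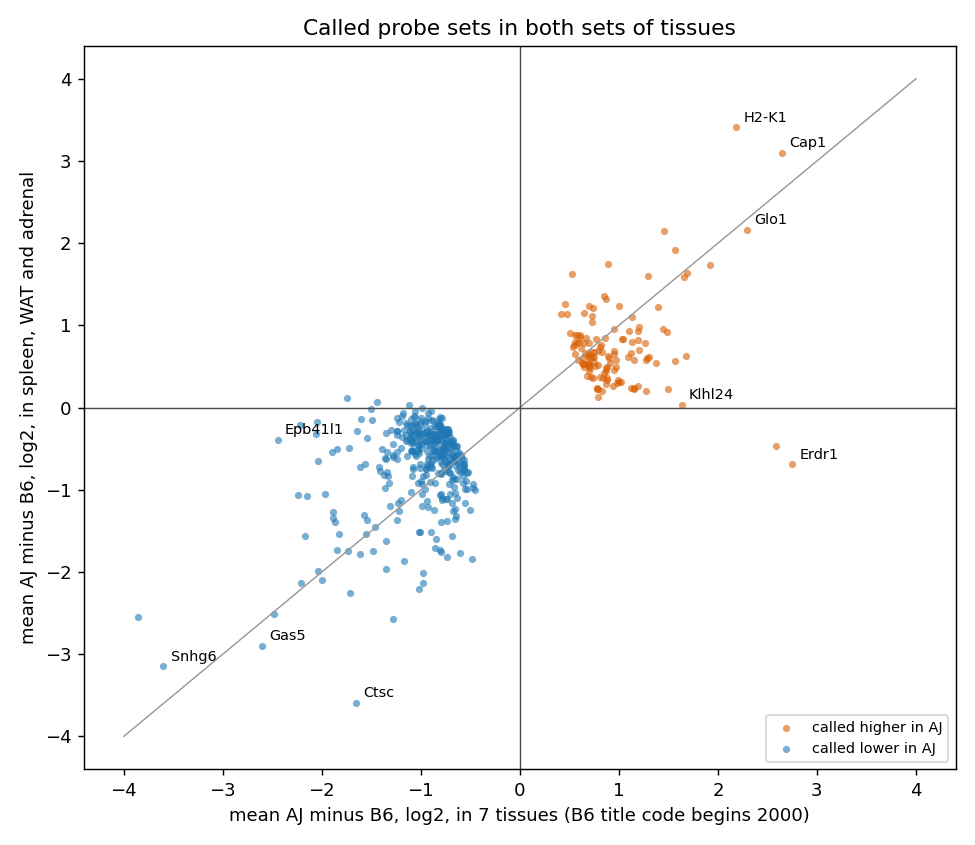
Mean AJ minus B6 difference in log2 intensity of the 490 called probe sets in the 7 tissues whose B6 title code begins with 2000 (horizontal) and in spleen, WAT and adrenal (vertical), with the line of equality. Snhg6 and Cap1 lie near the line, and Erdr1 lies at 2.75 and -0.69.

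Some genes differed most in 1 organ, where no test was possible. They were picked among probe sets not called, with the differences in all other tissues under 1 in log2 size. Smaller differences elsewhere were thus allowed, and the largest of them was 0.997 for Hao2 and 0.117 for Miox. In liver, Hao2, a peroxisomal hydroxyacid oxidase gene, read 11.84 in AJ and 252.6 in B6, with 129, DBA and C3H at the floor. In spleen, Tlcd4 read 264.78 in AJ and 17.82 in B6, and its log2 levels in the other 3 strains, 6.99 to 7.11, lay nearer to that of AJ. In heart, Baiap2l1 read 583.62 in AJ and 29.18 in B6, with C3H near AJ (9.26) and 129 at the floor. In testes, Grin2b, a glutamate receptor gene, read 594.17 in AJ and 68.92 in B6, and the other strains were at log2 levels of 9.27 to 9.51, close to AJ at 9.21. Ly6f, a gene of the Ly6 surface protein family, read 987.96 in B6 WAT and under the floor in AJ WAT, beside the epididymal genes that were higher in the same B6 array, and its log2 levels in the other 3 strains were 6.60 to 9.05. Serpina1b, a liver protease inhibitor, read 388.35 in B6 thymus and 5.62 in AJ thymus, beside the liver markers given above. Miox, a kidney enzyme gene, read 102.35 in B6 muscle and under the floor in AJ muscle, beside the kidney markers there. The part of these marker differences was not tested.

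The other 3 strains place the difference on the side of AJ or of B6 for only a part of the core. Among the 103 probe sets of the core, the means of 129, DBA and C3H were all nearer to AJ in 33 and all nearer to B6 in 16. The rest were split, with 1 strain nearer to AJ in 28 and 2 strains in 26. B6 stood apart for Snhg6, at 8.74 against 5.22 to 5.59 in the other 4 strains, and for Spg21, at 8.02 against 5.99 to 6.40. It was also apart for Cap1, at 4.15 against 6.42 to 6.94. For Alad, B6 averaged 8.64 and the others 9.76 to 10.31. AJ stood apart for Hopx, at 6.23 against 7.85 to 7.96, and for Pdk1, a kinase that restrains pyruvate oxidation, at 6.35 against 7.84 to 7.95. Itgb1bp1 probe set 100989_at was at 7.26 in AJ and 6.26 to 6.42 elsewhere. Gas5 was graded, at 6.35 in 129, 6.56 in AJ, 7.41 in C3H, 8.33 in DBA and 9.25 in B6. These positions are a description, since the core was chosen from AJ and B6.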

How the data were processed

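RNA from 10 body tissues of AJ and B6 mice was hybridized as biotin-labelled targets to Affymetrix MG_U74Av2 arrays, per the labels. The authors deposited 1 linear intensity per probe set and array; which software and scaling made it is not given in the sources used here. Values of this kind depend on background subtraction: 5.98% of those on the 20 arrays were below 0. With 1 array per strain and tissue, the number of arrays limits the precision, and the labels do not say whether tissues came from separate animals, so p-values measure only the spread between these arrays.

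Control probe sets (66 of 12488) were left out. Intensities were raised to the 20th percentile of all values (10.41) and taken as log2, with no further scaling. Probe sets were tested if the mean of AJ and B6 exceeded 5.73 (the median log2 value) in at least 1 tissue. limma 3.58.1 in R 4.3.3 fitted tissue and strain, with eBayes and an intensity trend. Terms for lymphoid organs, fat and title code were called on the adjusted p alone. The tissue pairs the samples by design. Gene symbols came from the platform annotation: 10833 probe sets had 1 symbol, 396 several and 1193 none, and 10817 matched RefSeq. The method was tested on simulated data.

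Genes were named by rule: the 15 probe sets with the largest called difference in each direction; genes with 2 or more called probe sets; up to 4 called members of each list; the largest single-tissue difference per tissue and direction; interaction calls; and genes with reported strain variants. Exceptions are stated in the text. Genes, lists and tests were chosen with earlier results of these data known. Alternatives covered the floor, offset, normalization, filter, eBayes options, blocks, left-out pairs, tissue sets and 5 strains in 1 fit. The title-code term, the 3 tissues alone and the filter on the higher strain were added after seeing the data.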

Additional observations from a re-analysis of the deposited data

Results flagged for a closer look

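In 4 of 43 probe sets screened over the 10 tissues, 1 tissue stood far from the other 9, where chance gives about 1 in 20. Alad differed by 3.83 in spleen, with 1.98 as the next value. Atp7a probe set 160609_at differed by -3.76 in adrenal, with -1.63 next. Gnb1 probe set 94854_g_at differed by 0.39 in BAT, where the next lowest was 1.12. Gnb1 probe set 97458_at differed by 1.51 in WAT, with 0.84 next.

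The strain difference varied with the tissue group for 3 probe sets by the limma interaction test. The floor fixes the result for 102823_at and bears on that for Spint1. For 102823_at the difference between lymphoid organs and the rest was -4.72, a value set by 2 B6 arrays above the floor while both strains lay at the floor in the other 8 tissues. Between the 3 tissues whose B6 title code does not begin with 2000 and the other 7, it was -3.44 for Erdr1 (adjusted p = 0.00883) and -2.39 for Spint1 (adjusted p = 0.0197). Spint1 read 42.1 to 76.3 in B6 adrenal, spleen and WAT, and under the floor in AJ in all 3. In heart and BAT, among the other 7, both strains lay at the floor, so the Spint1 p-value depends on the floor. The meaning of the title codes was not stated, and their part in these values was not tested.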

How the results depend on the processing

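The count of probe sets higher in AJ (128) was 82 with 32 added before the log and 0 in the 3 tissues alone. It was 63 to 152 with a tissue pair left out. The count of lower ones (362) was 226 with the floor at the 40th percentile, 123 with 32 added and 140 after quantile normalization. It was 162 with the filter at the 75th percentile, 0 in the 3 tissues alone, and 157 to 468 with a pair left out. With the probe sets of a gene averaged, 77 genes were higher and 241 lower. These counts stand beside the 108 and 297 genes with a symbol among the called probe sets. Without the tissue as a replicate block, which drops the pairing, 7 probe sets were higher and 14 lower. The lymphoid count (1) was 23 with the floor at the 40th percentile, 2 with 32 added, 11 without a filter, 0 with the filter at the 75th percentile, 17 in the 7 tissues, where thymus alone stood for lymphoid organs, and 1 to 38 with a pair left out. The fat count (0) was 1 with the floor at the 40th percentile, 4 without a filter, and 0 to 59 with a pair left out. Erdr1 reversed in the 3 tissues alone, to -0.69. Beside the fit without the block and that of the 3 tissues, the latter keeping 0 named calls, 21 alternatives were run on 66 named calls: 33 were kept wherever tested and 33 were lost in at least 1, 31 of them without some tissue pair and 20 after quantile normalization. The remaining alternatives kept the counts within 1.5 times; the cause of the changes was not tested. A floor at the 5th percentile was not run, since that value lies below 0 and has no log. Array number and signal near the floor limit what can be called.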

Other observations

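Called genes did not stand out by having called neighbours. Of 404 called genes placed on the RefSeq gene order, 45 (11.1%) had a called gene as a nearest tested neighbour, and of all 6700 tested genes 778 (11.6%) did. There were 23 adjacent called pairs, of which 17 shared the direction and 6 did not. The metallothionein genes Mt1 and Mt2 were 1 such pair, both higher in AJ, and Traf6, a signalling ubiquitin ligase gene, and Commd9 were another, both lower.

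Over all 490 called probe sets, the mean of C3H lay nearer to AJ for 306, that of DBA for 259 and that of 129 for 249. The correlation of AJ with B6 over probe sets ran from 0.926 in thymus to 0.961 in spleen, a description over probe sets that share an array.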
